A study of Mus musculus with 98 samples.

Results

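The blood leukocytes of mice in a burn model and in a lipopolysaccharide (LPS) model were profiled on 42 arrays, out of 98 arrays in the whole series. These 42 were chosen by their titles, which begin with BURN or LPS, carry a code c or x and a letter A or E, and name blood as the source. LPS is a component of the outer membrane of gram-negative bacteria. Per the labels, letter E marks burn injury or LPS infusion and letter A marks sham treatment, while the codes c and x are left unexplained and were compared as coded. The burn model had 5 c and 6 c arrays (letters A and E) and 4 x and 5 x arrays (letters A and E). The LPS model had 6 c arrays of each letter and 5 x arrays of each letter. All groups share the source, leukocytes of blood, and the labels give no strain, sex, age, time or dose. The labels do not say whether arrays of 1 group stand for different animals. The p-values therefore speak only of the spread among these samples, and that spread may be technical. The question was whether the difference between codes x and c in burn blood differs from that in LPS blood. For each gene, x minus c was averaged over both letters within a model, and the LPS value was subtracted from the burn value (the burn-minus-LPS difference, in log2 units). Since both letters enter, x minus c is a difference between codes and not the response of blood to burn or LPS. Below, rose and fell mean x against c within a model. Intensities of the 2 models were never set against each other, since the lowest value of a burn array was 27.3 and of an LPS array 32.5 and the medians of the arrays lay at 120 to 128 and 138 to 145.

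LPS is sensed by Toll-like receptor 4, which signals through Myd88 to NF-kB and, by another adaptor, to interferon regulatory factors. NF-kB then induces its own inhibitors and subunits as feedback, and interferon induces antiviral and antigen-presenting genes. Severe injury is known for raising circulating glucocorticoids and catecholamines, which change the number and the transcription of blood leukocytes, and for releasing neutrophils while lymphocytes leave the blood. Blood holds many cell types in changing numbers, so in these bulk samples fewer cells of a type and less RNA per cell cannot be told apart.

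Markers of the main blood cells were bright. The mean signals of Ptprc (CD45, on all leukocytes), Cd79a (B cells), Cd3e (T cells), S100a8 (neutrophils) and Pf4 (platelets) lay at or above the 92.5th percentile in both models. Hba-a1 (alpha globin) lay at the 28.4th in burn blood and the 25.3rd in LPS blood. These percentiles are over the brightest probe set of each gene before filtering. Several measured facts stand beside every result below. First, RNA integrity was read from the beta-actin control probe sets, as the log2 of their 3′ signal over their 5′ signal. This ratio was 0.94 to 1.27 on LPS x arrays (mean 1.07 ± 0.105, SD, n = 10) and 1.49 to 1.65 on LPS c arrays (mean 1.58 ± 0.0587, SD, n = 12). The 2 ranges did not overlap, and x minus c was -0.51 in LPS blood (two-sided permutation test within letters, p = 1e-05, the smallest the permutations can give, adjusted p = 1.2e-04 over 12 tests). In burn blood it was 0.010 (same permutation test, p = 0.893, adjusted p = 0.913), and the difference between the models was 0.52 (permutation p = 9e-05, adjusted p = 5.4e-04). The GAPDH ratio moved the other way in LPS blood, by 0.15 (permutation p = 0.0145, adjusted p = 0.058). Because the actin ratio separates LPS x from LPS c arrays, RNA integrity and code cannot be told apart in LPS blood. Fits below with this ratio as a covariate show only how far a result moves. Second, 6 burn arrays had summed intensities of 23 hepatocyte genes of 9486 to 46721, against 1770 to 2884 on the other 14 burn arrays. Among LPS arrays, read only against each other, the sums were 2933 to 3619. The 6 burn arrays were c of letter E replicates 1, 3 and 6, x of letter A replicate 1, and x of letter E replicates 1 and 3. Alb, which encodes albumin, reached 3531 to 10268 on these 6 and 115 to 673 on the other burn arrays. Of the 12 hepatocyte genes tested, 0 were called. Further, burn c of letter E replicates 4 and 5 had mean deviations of the neutrophil markers of 1.71 and 1.43 log2 from the c mean of their letter, against -1.11 to -0.18 on the other arrays of letter E. Their B cell markers lay at -0.60 and -0.33, against 0.11 to 0.33. Lastly, in LPS x, letter A replicate 2 and letter E replicate 5 lay closer to the other letter in several genes. The mean deviation of the neutrophil markers was 1.81 to 2.08 on 4 arrays of letter E and 0.65 on replicate 5, and 1.21 on letter A replicate 2 against -0.055 to 0.70 on the other arrays of letter A. Whether a label is at fault was not tested.

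**Figure D1:**
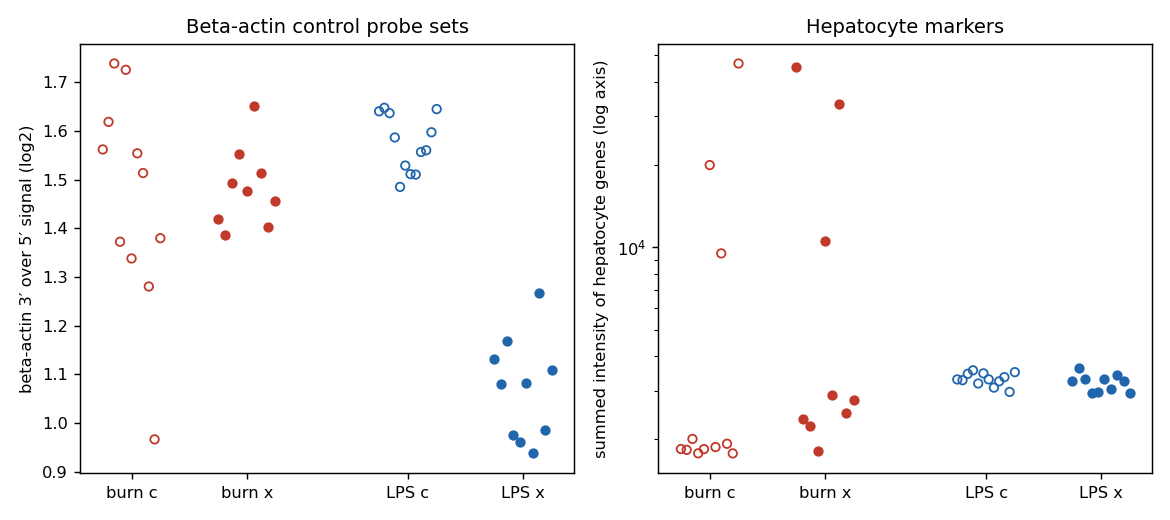
Each point is 1 blood array. Left, the log2 ratio of 3′ to 5′ beta-actin signal by model and code; right, the summed intensity of 23 hepatocyte genes on a log axis. The 10 LPS x arrays (0.94 to 1.27) lie below all 12 LPS c arrays (1.49 to 1.65), and 3 burn c and 3 burn x arrays lie between 9486 and 46721 in the hepatocyte sum.

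Of 10247 genes tested, 2400 (23.4%) differed between the models in their x minus c (limma, adjusted p of at most 0.05). The 10247 are 8991 genes with a symbol and 1256 probe sets with no symbol or several, each counted as a gene here and below. Of the 2400, 330 were such probe sets. The difference was positive, that is more positive in burn, for 1093 genes (10.7%) and negative for 1307 genes (12.8%). At least 2-fold differences were reached by 116 of them, 66 positive and 50 negative, and the median size of the called differences was 0.39. For comparison, the median over all genes was 0.0024 and the median SE was 0.092. Within burn blood 764 genes (7.46%) were higher and 1071 genes (10.5%) lower under x, and within LPS blood 1444 genes (14.1%) were higher and 1516 genes (14.8%) lower. The called differences were mostly one-sided. Of the 1093 positive genes, 555 were lower in LPS blood and not called in burn blood, 309 were higher in burn blood and not called in LPS blood, and 123 were called in opposite directions. Of the 1307 negative genes, 588 were higher in LPS blood and not called in burn blood, 334 were lower in burn blood and not called in LPS blood, and 250 were called in opposite directions. The genes with opposite calls thus numbered 373 (3.64%). A further 440 genes were called in the same direction in both models, of which 45 also differed in size. The 9 burn x arrays all lay above, or all below, the 10 LPS x arrays for 628 genes (6.13%), each array being taken as its log2 value minus the c mean of its own model and letter. Such values are called deviations below, and a statement that groups overlap or do not overlap is about deviations. With the actin ratio as a covariate 2508 genes were called, of which 1493 were among the 2400. With the GAPDH ratio as a covariate 2629 genes were called, of which 2259 were among the 2400. Without the 6 arrays with hepatocyte signal 1848 genes were called, of which 1740 were among the 2400. Leaving out burn c of letter E replicates 4 and 5 gave 2741 calls, 2283 of them shared, and leaving out LPS x of letter A replicate 2 and letter E replicate 5 gave 2551, 2290 of them shared.

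**Figure D2:**
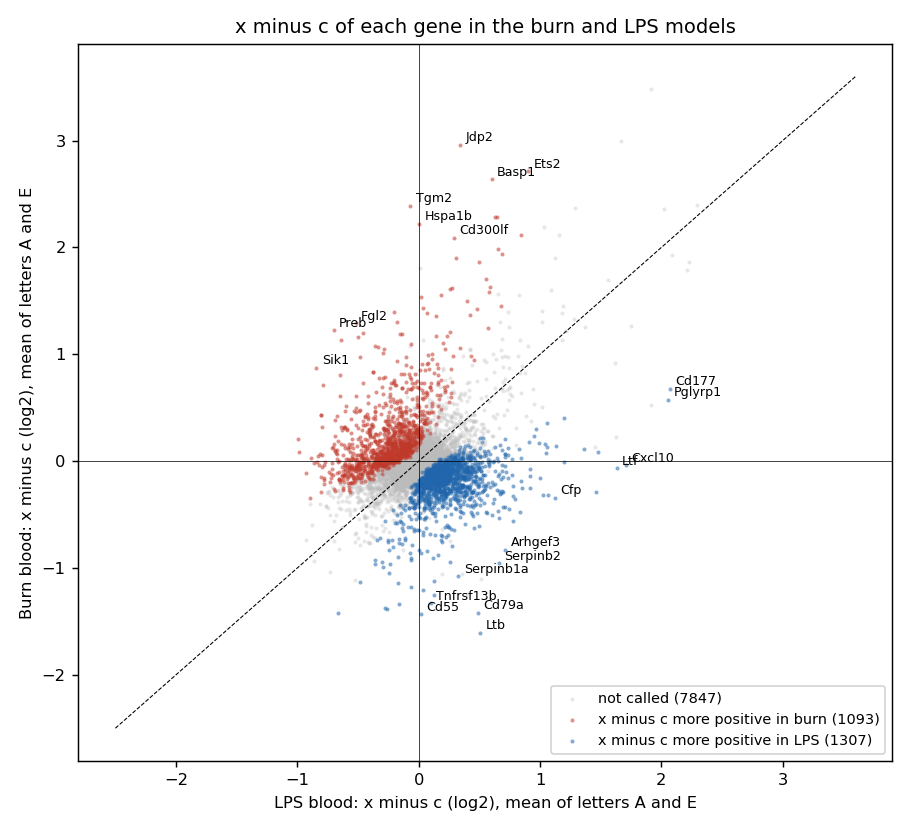
Each point is 1 of 10247 genes, with its x minus c in LPS blood (horizontal, log2) and in burn blood (vertical, log2), and the dashed line marks equal values. The 1093 genes in red lie above the line and the 1307 in blue below it. The labelled genes are those with the largest differences, such as Jdp2 at 2.62 and Ltb at -2.11.

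**Figure D3:**
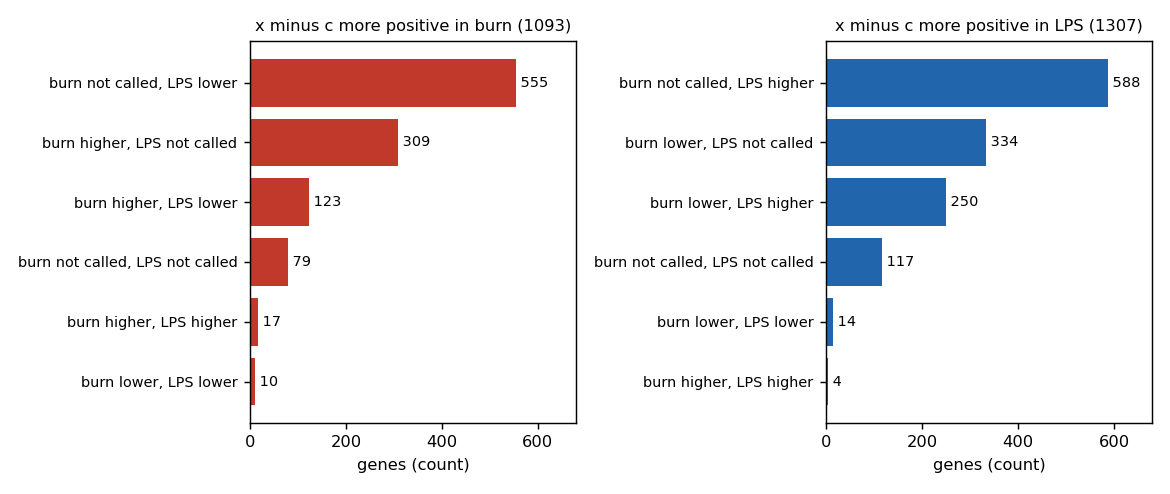
Bars give the number of genes called positive (left, 1093) or negative (right, 1307) by their calls within each model. The longest bars are the 555 genes lower in LPS blood and the 588 genes higher in LPS blood that were not called in burn blood.

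Chaperones of the heat shock response gave one of the largest differences. Hspa1b, which encodes an inducible HSP70, had intensities of 160.3 to 275 (median 189.8) on burn c arrays and 545 to 2518 (median 1038) on burn x arrays. On LPS arrays it had 185 to 332 (median 227) under c and 199 to 291 (median 226) under x. All 9 burn x arrays lay above all burn c arrays and above all LPS x arrays, while the LPS groups overlapped. It rose 4.66-fold in burn blood (x minus c 2.22 ± 0.14, SE) against 0.00 ± 0.14 in LPS blood, a burn-minus-LPS difference of 2.22 ± 0.20 (adjusted p = 6.5e-11). Its 3 probe sets gave 1.98 to 2.32. Hspa1a, its neighbouring copy, differed by 0.24 ± 0.058, and since the copies are nearly identical, probes may not tell them apart. Of 14 heat shock chaperones tested, 5 were positive and 0 negative, with a median of 0.21. Over all genes 10.7% were positive and 12.8% negative, and each list count below is to be read against these shares. The remaining positive members were Dnajb4 (0.63 ± 0.13), Hspe1 (0.50 ± 0.13) and Dnajb1 (0.49 ± 0.12), cochaperones of HSP70 and, for Hspe1, of the mitochondrial chaperonin. Dnajb4, Hspe1 and Dnajb1 fell in LPS blood (-0.40, -0.56 and -0.61) and were not called in burn blood. Hspa8, the constitutive HSP70, was at 0.22 and Hsp90aa1 at 0.19, neither past the threshold. The promoters of both copies are shown because they hold letters of the heat shock element, to which heat shock factor binds. They are the RefSeq promoters (build GRCm38.p6) of Hspa1b (chr17:34959239-34959488, minus strand) and Hspa1a (chr17:34972157-34972406, minus strand), 250 bases before the start of the gene, with the motif GAANNTTC in capitals, 104 bases before the start.
Hspa1b: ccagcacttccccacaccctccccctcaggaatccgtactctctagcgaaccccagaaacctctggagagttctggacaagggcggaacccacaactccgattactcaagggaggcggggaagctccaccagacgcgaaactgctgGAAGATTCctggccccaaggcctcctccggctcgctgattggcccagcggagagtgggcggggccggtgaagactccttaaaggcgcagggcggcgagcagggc
Hspa1a: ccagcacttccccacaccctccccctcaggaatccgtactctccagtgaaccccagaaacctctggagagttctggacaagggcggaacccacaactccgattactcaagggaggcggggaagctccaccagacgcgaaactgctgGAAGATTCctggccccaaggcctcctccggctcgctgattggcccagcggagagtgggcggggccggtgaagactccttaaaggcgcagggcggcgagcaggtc
The 2 sequences differ at 3 of 250 bases. The motif reads the same on both strands and occurred in 6 of the 12 tested list members with a promoter entry, in 3 of the 5 that passed, and in 6.69% of all 32851 promoters.

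Genes induced by glucocorticoids were the list with the most positive differences. Of 19 tested, 13 were positive and 0 negative, with a median of 0.81, where 10.7% of all genes were positive. Their median x minus c was 0.69 in burn blood and -0.064 in LPS blood. Per1, a repressor in the circadian clock that glucocorticoids induce, had 137 to 246 (median 152) on burn c and 311 to 401 (median 363) on burn x arrays. Its LPS intensities were 321 to 479.9 (median 379.7) under c and 201 to 349.6 (median 321) under x. The burn x arrays did not overlap with the burn c arrays or with the LPS x arrays. Per1 rose 2.10-fold in burn blood (1.07 ± 0.088) and fell in LPS blood (-0.33 ± 0.084), a difference of 1.40 ± 0.12 (adjusted p = 3.3e-11). Cdkn1a, an inhibitor of cyclin-dependent kinases, had 195 to 387 (median 265) and 587 to 899 (median 760.3) in burn blood. In LPS blood its levels were 248 to 354 (median 275) and 254 to 363 (median 288). It did not overlap between burn c and burn x, and the difference was 1.32 ± 0.13 (adjusted p = 8.9e-10), although a second probe set gave 0.16. Klf9, a Krüppel-like factor, went from 179 to 443 (median 316) to 458 to 825 (median 629.8) in burn blood. On LPS arrays it had 223 to 269.8 (median 247) under c and 209 to 292 (median 233) under x, and it differed by 1.16 ± 0.16 (adjusted p = 4.1e-07). Its 7 probe sets ranged from -0.011 to 1.67. Zbtb16 (PLZF, 1.44 ± 0.34), Fkbp5, a cochaperone of the glucocorticoid receptor (0.97 ± 0.19), Ddit4, an inhibitor of mTORC1 (0.82 ± 0.16), Dusp1, a phosphatase of MAP kinases (0.81 ± 0.29), Klf13 (0.55 ± 0.12) and the kinase Sgk1 (0.52 ± 0.16) were also positive. Tsc22d3 (GILZ) was at 0.27 ± 0.15, not past the threshold, with x higher than c in both models (0.55 and 0.27). Il1r2, the decoy receptor of interleukin 1, rose in both models (3.0 ± 0.46 and 1.67 ± 0.43), and its difference of 1.33 ± 0.63 did not pass. The mean deviation of the list was 0.72 to 1.26 on burn x arrays, above all LPS x arrays (-0.09 to 0.36). Under the actin covariate 14 members were positive and 0 negative, and without the arrays with hepatocyte signal 10 and 0. Letter A alone gave 11 positive members (median 1.06) and letter E alone 6 (median 0.57).

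**Figure D4:**
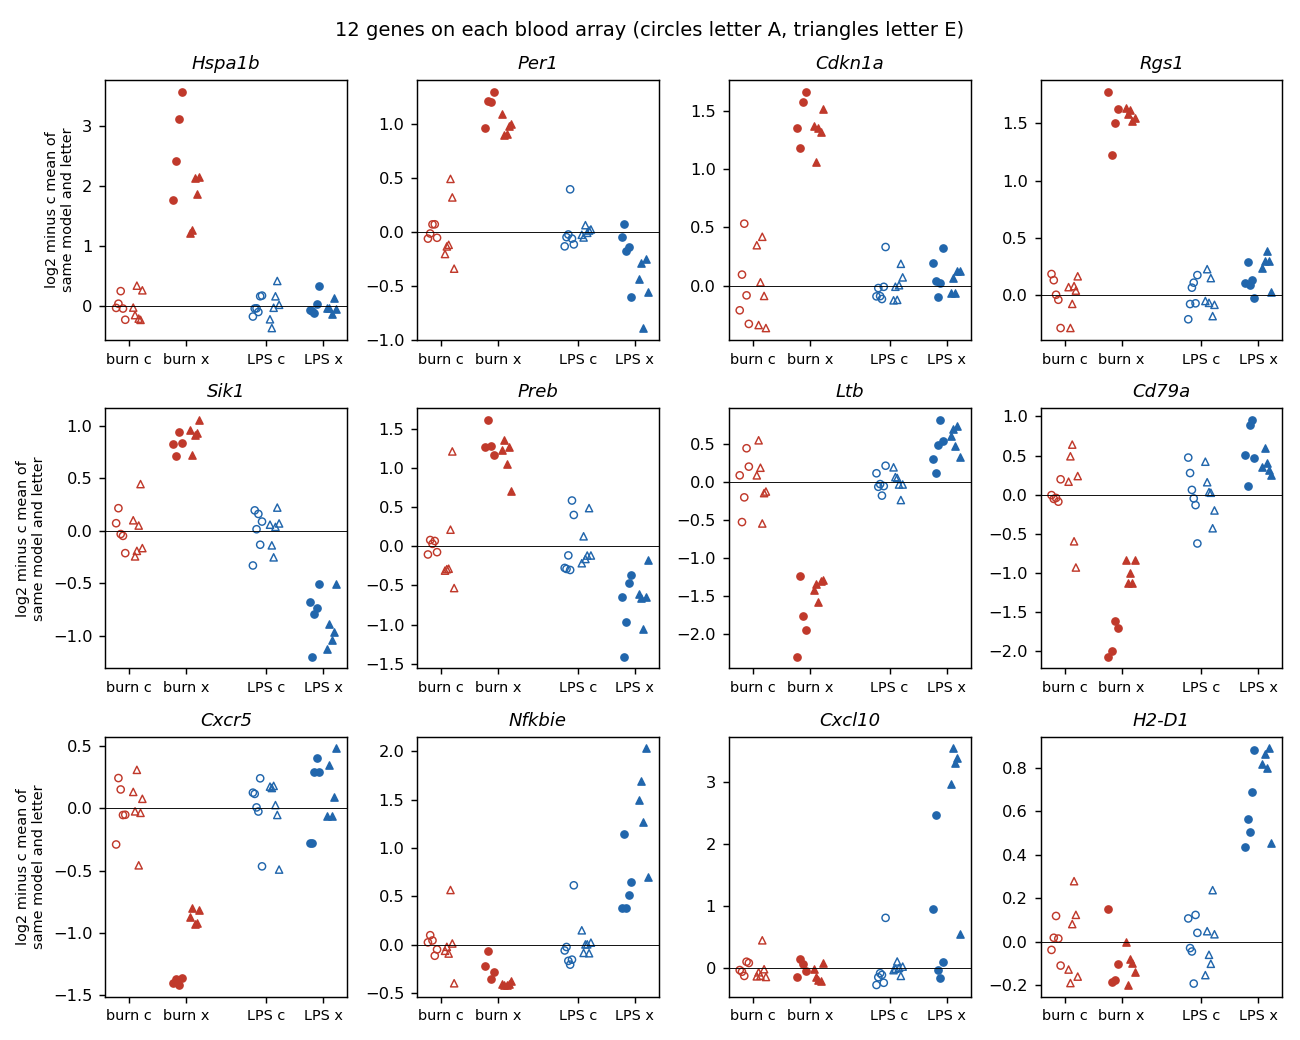
Each panel is 1 gene and each point 1 array, as its log2 value minus the c mean of the same model and letter; open symbols are c, filled symbols x, circles letter A and triangles letter E. All burn x arrays lie above all LPS x arrays for Hspa1b, Per1, Cdkn1a, Rgs1 and Sik1, and below them for Ltb, Cxcr5, Nfkbie and H2-D1.

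Clock genes were divided. Of 13 tested, 4 were positive and 2 negative, with a median of -0.083. Besides Per1, the positive members were Nfil3, a repressor of D-box genes, Nr1d2, a nuclear receptor that represses clock genes, and Bhlhe40. Nfil3 rose in both models, 4.89-fold in burn blood and 1.55-fold in LPS blood, and differed by 1.66 ± 0.30 (adjusted p = 5.3e-05). Nr1d2 differed by 0.87 ± 0.17 (adjusted p = 1.5e-04), although its other probe set gave -0.25. The negative members were Cry2 (-0.55 ± 0.12) and Clock (-0.20 ± 0.047). Arntl, Nr1d1 and Per3 were at 0.0083, -0.10 and -0.11 and did not pass.

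Immediate early genes, which are transcribed within minutes of a stimulus, went both ways, with 8 positive and 5 negative of 26 (median 0.14). Rgs1, an inhibitor of G protein signalling, had 256 to 402 (median 345) on burn c and 755 to 1196 (median 1114) on burn x arrays. On LPS arrays it had 249.7 to 346 (median 291) under c and 308 to 365 (median 334) under x. The burn x arrays lay above burn c and above LPS x, and the difference was 1.37 ± 0.095 (adjusted p = 1.7e-13). Rgs2 (1.5 ± 0.37), the transcription factor Egr1 (1.34 ± 0.40), Btg1, an antiproliferative gene (0.54 ± 0.095), Klf6 (0.43 ± 0.14), Maff (0.38 ± 0.056) and Atf3 (0.30 ± 0.11) were positive too. On the negative side stood Ier3 (-1.39 ± 0.46), Zfp36, which destabilises cytokine mRNAs (-0.97 ± 0.20), Jun (-0.53 ± 0.16), Junb (-0.50 ± 0.11) and Nr4a3 (-0.41 ± 0.12). Ier3 and Zfp36 rose in LPS blood (1.48 ± 0.31 and 1.05 ± 0.14) and were at 0.085 and 0.079 in burn blood. Fos was at 0.86 ± 0.34 and did not pass.

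Among the largest positive differences, Jdp2, a repressor of AP-1, and Tgm2, a transglutaminase, led by size. Jdp2 had 96.3 to 1163 (median 108) on burn c and 888 to 2183 (median 1448) on burn x arrays, and 121 to 764 (median 189.5) and 173 to 451 (median 313) on the LPS arrays. Its burn x arrays lay above the LPS x arrays but overlapped with burn c, where replicates 4 and 5 of letter E were high, and the difference was 2.62 ± 0.45 (adjusted p = 2.5e-05). A second probe set of Jdp2 gave 0.03. Tgm2 differed by 2.46 ± 0.33 (adjusted p = 4.1e-07), with its 6 probe sets spread from -0.011 to 2.49. Basp1 (2.04 ± 0.41), the transcription factor Ets2 (1.81 ± 0.44), Cd300lf, an inhibitory receptor of myeloid cells (1.80 ± 0.52), Fgl2, a fibrinogen-like protein of macrophages (1.81 ± 0.34), the iron exporter Slc40a1 (1.78 ± 0.39) and Rell1 (1.66 ± 0.18) followed. Ets2 and Cd300lf did not pass without the 6 arrays with hepatocyte signal, at 1.30 (adjusted p = 0.051) and 1.33 (adjusted p = 0.11). Clec7a (Dectin-1, the receptor for fungal beta-glucan) rose in burn blood (1.16 ± 0.18) and fell in LPS blood (-0.50 ± 0.17), a difference of 1.66 ± 0.25 (adjusted p = 2.7e-06).

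Sik1, Arhgef3 and Preb were the genes with the largest opposite calls, ranked by the smaller of their changes in burn and LPS blood. Sik1, a kinase induced by cAMP, had 151 to 278 (median 195) on burn c and 320.3 to 416 (median 381) on burn x arrays. On LPS c arrays it had 258 to 473 (median 375) and on LPS x arrays 139 to 290.0 (median 192). The x and c arrays did not overlap in either model and lay in opposite order. It rose 1.83-fold in burn blood and was 1.79-fold lower in LPS blood, a difference of 1.72 ± 0.12 (adjusted p = 1.7e-13). Preb, which helps load vesicles leaving the endoplasmic reticulum, rose 2.34-fold and was 1.62-fold lower, a difference of 1.93 ± 0.22 (adjusted p = 1.6e-08). Arhgef3 had 494 to 744 (median 629) under c and 310.4 to 427 (median 354) under x in burn blood. In LPS blood it had 413 to 686 (median 462) and 559.6 to 1138 (median 885). It was lower in all 9 burn x arrays and higher in all 10 LPS x arrays than the c mean of its letter, a difference of -1.54 ± 0.10 (adjusted p = 5.3e-14). These 3 genes kept their call in each of 67 alternative analyses, a 2-fold threshold included, though the other probe set of Preb gave a smaller 0.61.

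B cell genes were the list with the most negative median. Of 15 tested, 11 were negative and 0 positive, with a median of -0.60, where 12.8% of all genes were negative. Their median x minus c was -0.80 in burn blood, where 13 were lower, and -0.065 in LPS blood, where 2 were higher and 4 lower. Cd79a, a signalling chain of the B cell receptor, had 827 to 2335 (median 1843) on burn c and 506 to 775 (median 661) on burn x arrays. On LPS arrays it had 431 to 948 (median 707) under c and 595 to 1377 (median 964) under x. All burn x arrays lay below all LPS x arrays, and the difference was -1.91 ± 0.20 (adjusted p = 3.7e-09). The partner chain Cd79b was lower in both models (-1.42 ± 0.18 and -0.66 ± 0.17) and differed by -0.76 ± 0.25. Cd22, an inhibitory coreceptor, had 774 to 1637 (median 1304) and 516 to 645 (median 588) in burn blood and 958 to 1528 (median 1306) and 929.7 to 1496 (median 1235) in LPS blood, without overlap between burn c and burn x. It differed by -1.11 ± 0.15 (adjusted p = 3.7e-07), and Cd37, a tetraspanin, by -1.05 ± 0.11 (adjusted p = 2.3e-09). Fcer2a (CD23, -1.24 ± 0.19), Cr2, a complement receptor (-1.12 ± 0.19), Ms4a1 (CD20, -0.80 ± 0.18), the adaptor Blnk (-0.60 ± 0.14), the kinase Blk (-0.59 ± 0.12), Fcrla (-0.59 ± 0.11) and Cd72 (-0.50 ± 0.14) were the others. Tnfrsf13c, Vpreb3, Pou2af1 and Ebf1 were at -0.17, -0.13, -0.091 and 0.25 and did not pass. Letter A alone gave 11 negative members (median -1.02) and letter E alone 5 negative and 1 positive (median -0.30). Under the actin covariate 11 were negative, and without the arrays with hepatocyte signal 9.

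Genes of lymphocyte organisation and homing were negative less often than B cell genes, with 5 negative and 1 positive of 13 (median -0.22). Ltb, a lymphotoxin chain, had the most negative difference of all tested genes with a symbol. Its burn intensities were 548 to 1591 (median 887) under c and 229.6 to 495 (median 310.1) under x. On LPS arrays they were 141 to 202 (median 171) and 182 to 314 (median 256). Burn x lay below burn c and below LPS x without overlap, and Ltb was 3.04-fold lower in burn blood and 1.42-fold higher in LPS blood, a difference of -2.11 ± 0.16 (adjusted p = 2.2e-12). Tnfrsf13b (TACI, a receptor for the B cell factors BAFF and APRIL) differed by -1.43 ± 0.15 (adjusted p = 1.2e-09), with 223 to 581 (median 458) on burn c and 130.2 to 193 (median 154) on burn x arrays. Cxcr5, the receptor that guides B cells into follicles, had 81.3 to 208 (median 138) on burn c and 53.5 to 61 (median 56.4) on burn x arrays. It had 111 to 199.7 (median 171) on LPS c and 126 to 245 (median 187) on LPS x arrays, and differed by -1.25 ± 0.14 (adjusted p = 9.8e-09). Ccr7, which guides lymphocytes and dendritic cells into lymph nodes, was lower in burn blood (-0.63 ± 0.11) and higher in LPS blood (0.45 ± 0.11). S1pr1, which governs exit from lymphoid organs, was at -0.32 ± 0.10. Cxcr4, which retains leukocytes in the bone marrow, was the positive member at 1.07 ± 0.22. Of 8 genes of MHC class II antigen presentation, 3 were negative and 0 positive (median -0.17): H2-DMa at -1.03 ± 0.18, H2-Ab1 at -0.55 ± 0.16 and the invariant chain Cd74 at -0.41 ± 0.10. H2-Ab1 was -1.01 among letter A arrays and -0.087 among letter E arrays and did not pass without the arrays with hepatocyte signal, at -0.39 (adjusted p = 0.12).

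Of 14 T cell genes 1 was positive (Cd8a, 0.21 ± 0.062) and 1 negative (Thy1, -0.43 ± 0.13), with a median of -0.12, where 23.4% of all genes were called in either direction. The other probe set of Cd8a gave -0.42, the opposite direction, and Cd8a did not pass with the actin ratio as a covariate, at 0.19 (adjusted p = 0.16). Thy1 did not pass without the arrays with hepatocyte signal, at -0.29 (adjusted p = 0.16). The negative count was 2 to 4 when any of 9 single arrays was left out (LPS c of letter A replicates 1 and 2, LPS x of letter A replicates 1 and 2, burn c of letter A replicates 1 and 3, burn c of letter E replicates 4 and 5, and burn x of letter A replicate 2). Cd3e, Cd3g and Cd3d, chains of the T cell receptor complex, were at -0.25, -0.18 and -0.11. Of 12 genes of NK and cytotoxic cells 3 were negative and 0 positive (median -0.098). Prf1, which encodes the pore protein perforin, had 191 to 280.1 (median 228) on burn c and 146 to 184 (median 162) on burn x arrays. On LPS arrays it had 138 to 181 (median 163) and 167 to 235 (median 207). The burn x arrays lay below burn c and below LPS x, and the difference was -0.76 ± 0.093 (adjusted p = 7.7e-08). Gzma, Gzmb and Nkg7 were at -0.22, -0.23 and -0.24 and did not pass, while the transcription factors Eomes (-0.43 ± 0.11) and Tbx21 (-0.18 ± 0.057) did. Without the arrays with hepatocyte signal Eomes was at -0.33 (adjusted p = 0.052) and Tbx21 at -0.17 (adjusted p = 0.068).

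Among NF-kB subunits and feedback inhibitors 7 of 15 rose in LPS blood and 3 in burn blood, with 8 differences negative, 1 positive and a median of -0.31. Their median x minus c was 0.26 in LPS blood and -0.016 in burn blood. Nfkbie, an inhibitor of NF-kB, had 129.5 to 258 (median 161) on burn c and 117 to 151 (median 127) on burn x arrays. On LPS c arrays it had 131 to 242 (median 142) and on LPS x arrays 193 to 645 (median 289). It was higher than the c mean of its letter in 10 of 10 LPS x arrays and lower in 9 of 9 burn x arrays, a difference of -1.34 ± 0.16 (adjusted p = 4.3e-08). The atypical inhibitor Bcl3 (-1.24 ± 0.30), the subunits Relb (-1.17 ± 0.19), Nfkb2 (-0.54 ± 0.11) and Rela (-0.31 ± 0.11), Tnip1 (-0.73 ± 0.27), Nfkbib (-0.50 ± 0.097) and the adaptor Traf1 (-0.32 ± 0.090) were also negative. Nfkbia, the first feedback inhibitor, was positive at 0.59 ± 0.21 (adjusted p = 0.036), with 0.65 in burn blood and 0.061 in LPS blood. The positive member was no longer called when any of 11 single arrays was left out (LPS c of letter A replicate 6 and letter E replicate 5, LPS x of letter A replicates 3 and 4 and letter E replicate 5, burn c of letter E replicates 2, 3 and 6, burn x of letter A replicate 2, and burn x of letter E replicates 1 and 4). Tnfaip3 was at 0.080 and Rel at 0.057, not past the threshold. Letter E alone gave 8 negative members (median -0.54) and letter A alone 3 (median -0.022). Adding the actin ratio as a covariate gave 4 negative and 1 positive (median -0.13). The part of RNA integrity in this list could not be told apart from the code and was not tested. Nfkb2 is shown with its RefSeq promoter (GRCm38.p6, chr19:46305680-46305929, plus strand), in which an NF-kB motif, spelled GGGA, any base, TTTCC, in capitals, begins 225 bases before the start.
Nfkb2: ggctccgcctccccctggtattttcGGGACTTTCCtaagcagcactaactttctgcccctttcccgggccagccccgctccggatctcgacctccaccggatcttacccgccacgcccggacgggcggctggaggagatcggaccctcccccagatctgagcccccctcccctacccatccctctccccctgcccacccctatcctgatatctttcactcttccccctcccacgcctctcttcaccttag
The motif was found, on either strand, in 2 of the 13 tested members with an entry (Nfkb2 and Nfkbia, called in opposite directions) and in 0.356% of all promoters.

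Genes induced by interferon showed 10 negative and 1 positive of 23, with a median of -0.28 (burn -0.038, LPS 0.22). Cxcl10, a chemokine for activated T cells, had 175 to 271 (median 186) on burn c and 170.0 to 216 (median 187) on burn x arrays. On LPS c arrays it had 42.3 to 110.3 (median 48.5) and on LPS x arrays 47.5 to 781 (median 233). The LPS x arrays were spread widely: 4 of the 5 of letter E lay at 497 to 781 and the remaining one at 76.8, while those of letter A lay at 345, 120.5, 60.7, 54.5 and 47.5. The difference was -1.75 ± 0.35 (adjusted p = 2.4e-04), being -0.66 among letter A arrays and -2.84 among letter E arrays. Parp14 (-0.67 ± 0.12), Cmpk2 (-0.55 ± 0.15), Usp18, which removes ISG15 (-0.54 ± 0.13), the GTPases Gbp3 (-0.78 ± 0.16), Irgm1 (-0.52 ± 0.14) and Ifi47 (-0.37 ± 0.13), the transcription factors Irf9 (-0.49 ± 0.075) and Irf7 (-0.32 ± 0.10), and Ifit3 (-0.26 ± 0.090) were the other negative members. Irf9 had 251 to 359 (median 287) on burn c and 239 to 296 (median 260.3) on burn x arrays. Its LPS values were 309 to 383 (median 342) under c and 368 to 510.3 (median 431) under x, and all burn x arrays lay below all LPS x arrays. Rsad2 (viperin) was positive at 0.46 ± 0.072 (adjusted p = 5.8e-06), with 10653 to 13476 (median 12605) on LPS c and 10056 to 12491 (median 10998) on LPS x arrays. Its 3 probe sets gave -0.092 to 0.47, so the direction is not shared by all of them. Letter E alone gave 8 negative members and letter A alone 2, and with the actin ratio as a covariate 3 were negative and 3 positive (median -0.086). The promoters of Cxcl10 (chr5:92348890-92349139, minus strand) and Rsad2 (chr12:26456453-26456702, minus strand) are shown because both hold the letters of the interferon-stimulated response element (TTTC, any 2 bases, TTTC, on either strand), in capitals, and were called in opposite directions (RefSeq, GRCm38.p6).
Cxcl10: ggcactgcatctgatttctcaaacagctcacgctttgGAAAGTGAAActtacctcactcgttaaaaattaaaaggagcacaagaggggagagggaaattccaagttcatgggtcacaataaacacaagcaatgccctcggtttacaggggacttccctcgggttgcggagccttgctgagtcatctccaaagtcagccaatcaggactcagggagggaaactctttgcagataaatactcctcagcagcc
Rsad2: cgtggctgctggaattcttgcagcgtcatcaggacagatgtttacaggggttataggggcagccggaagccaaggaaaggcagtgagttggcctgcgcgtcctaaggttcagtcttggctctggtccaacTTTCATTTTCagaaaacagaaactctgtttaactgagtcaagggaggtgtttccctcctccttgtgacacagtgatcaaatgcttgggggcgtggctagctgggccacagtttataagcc
The motif occurred in 10 of the 19 tested members with an entry, in 5 of the 9 that passed, and in 2.98% of all promoters.

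Genes of MHC class I and the immunoproteasome also leaned negative, with 8 negative and 0 positive of 12 (median -0.36). H2-D1, a class I heavy chain, had 2246 to 3789 (median 3028) on burn c and 2631 to 3388 (median 2841) on burn x arrays. On LPS c arrays it had 1531 to 2354 (median 1782) and on LPS x arrays 2161 to 3587 (median 3142). The LPS x arrays lay above all LPS c and all burn x arrays, and the difference was -0.78 ± 0.092 (adjusted p = 3.0e-08). Its 9 probe sets ranged from -0.81 to 0.13, and class I genes share sequence. H2-K1 was lower in burn blood (-0.41 ± 0.081) and higher in LPS blood (0.51 ± 0.077), with 4 probe sets from -1.02 to -0.61. Psmb8 (-0.54 ± 0.11) and Psmb9 (-0.30 ± 0.059) of the immunoproteasome, its activator Psme1 (-0.53 ± 0.076), the peptide transporter Tap1 (-0.44 ± 0.072), Pdia3 (-0.42 ± 0.16) and the light chain B2m (-0.26 ± 0.096) were the others. Under the actin covariate 5 were negative, and without the arrays with hepatocyte signal 7.

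In Toll-like receptor signalling 2 of 13 were negative and 0 positive (median -0.18), near the 12.8% of all genes that were negative. The actin covariate gave 0 negative and 2 positive. Map3k8, a kinase that carries the signal to ERK, rose in LPS blood (0.85 ± 0.18) and was at -0.25 in burn blood. Tollip was at -0.52 ± 0.097 (adjusted p = 8.6e-05). Once the actin ratio was a covariate they were at -0.43 (adjusted p = 0.45) and -0.31 (adjusted p = 0.11). Tlr2 and Tlr4 rose in LPS blood (1.01 and 0.37), their differences of -0.51 and -0.36 did not pass, and Cd14, the coreceptor for LPS, rose in both models (2.12 ± 0.39 and 1.16 ± 0.37). In the interleukin 1 system 1 was positive and 2 negative of 13 (median -0.061). Il1rap, the accessory chain of the receptor, was positive at 1.22 ± 0.28 (adjusted p = 0.0012). The adaptor Myd88 was negative at -0.72 ± 0.13 (adjusted p = 4.7e-05), with 478 to 891 (median 519) on LPS c and 665 to 1263 (median 898) on LPS x arrays, and was at -0.49 (adjusted p = 0.059) with the actin ratio as a covariate. Irak1 was negative at -0.29 ± 0.096, but its 4 probe sets spanned -0.29 to 0.65, and it was at -0.24 (adjusted p = 0.099) without the arrays with hepatocyte signal. Median scaling and values as deposited also ended its call. Il1b rose in both models (0.89 ± 0.29 and 0.85 ± 0.27), and its difference was 0.044 with a 95% confidence interval of -0.76 to 0.85. Among cytokines and their receptors 2 were positive and 1 negative of 17 (median -0.011): Ifngr1, a chain of the interferon gamma receptor, at 0.68 ± 0.12 (adjusted p = 3.8e-05), Il15 at 0.42 ± 0.12 (without the arrays with hepatocyte signal at 0.31, not past the threshold) and Tgfb1 at -0.85 ± 0.084 (adjusted p = 8.0e-10). Tgfb1 was lower in all 9 burn x arrays and higher in all 10 LPS x arrays. Of chemokines and their receptors 2 of 11 were negative and 0 positive (median -0.067), Ccr7 and Ccl4 (-0.45 ± 0.12). Cxcl2, which draws neutrophils, rose in both models (3.49 ± 0.63 and 1.92 ± 0.59), and its difference of 1.57 ± 0.86 did not pass.

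Many neutrophil genes rose in both models. Of 17 tested, 9 were higher in burn blood and 13 in LPS blood, with median x minus c of 0.98 and 0.93. The burn-minus-LPS difference was called positive for 1 and negative for 2 (median -0.066), 3 of 17 where 23.4% of all genes were called. These counts moved with the setting: 6 positive and 0 negative with the actin ratio as a covariate, 4 and 1 without burn c of letter E replicates 4 and 5, 3 and 0 in letter A alone, 0 and 3 in letter E alone, and 0 and 3 without the arrays with hepatocyte signal. Ngp (1.87 and 2.23), Mmp8 (1.93 and 2.09), Lcn2 (1.79 and 2.21) and Cxcr2 (0.98 and 0.82) rose in burn and LPS blood. S100a8, a calprotectin subunit, differed by 0.95 ± 0.34 (adjusted p = 0.038), and the call was lost when any of 15 single arrays was left out, and without the arrays with hepatocyte signal (0.57, adjusted p = 0.3). Ltf (lactoferrin) rose in LPS blood (1.63 ± 0.35) and was at -0.068 in burn blood, a difference of -1.70 ± 0.50 (adjusted p = 0.011), which did not pass with the actin ratio as a covariate, at -0.93 (adjusted p = 0.41). Its LPS x intensities were again uneven, at 679 to 2909 on 4 arrays of letter E, 98.5 on the remaining one, and 105 to 1045 on those of letter A. Cd177, a neutrophil surface protein, differed by -1.40 ± 0.51 (adjusted p = 0.044), being 0.35 among letter A arrays and -3.14 among letter E arrays, and the call was lost when any of 27 single arrays was left out. Under the actin covariate it was at 0.55 (adjusted p = 0.61). The list's median was 1.07 in letter A alone, -1.08 in letter E alone, 1.56 with the actin ratio as a covariate and 0.38 without burn c of letter E replicates 4 and 5. Acute phase and antimicrobial genes had 2 negative and 0 positive of 11 (median -0.42), Pglyrp1, which binds peptidoglycan (-1.48 ± 0.41, adjusted p = 0.0065), and the protease inhibitor Slpi (-0.79 ± 0.25, adjusted p = 0.018). Pglyrp1 had 227 to 1429.8 (median 324) on LPS c and 666 to 3639 (median 1358) on LPS x arrays, and 467 to 3197 (median 582) and 728 to 1599 (median 1149) in burn blood. Given the actin covariate Pglyrp1 was at -0.11 (adjusted p = 0.92) and Slpi at 0.062 (adjusted p = 0.92). Hp and Cebpb rose in both models, with differences of 0.26 and 0.049 that did not pass. Without LPS c of letter A replicate 6, 4 acute phase genes were negative.

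Other myeloid genes were divided. Of 14 monocyte and macrophage genes 1 was positive, Csf1r, the receptor for colony-stimulating factor 1 (0.54 ± 0.18, adjusted p = 0.026), and 0 were negative (median -0.10). Csf1r was lower in LPS blood (-0.63 ± 0.12) and at -0.090 in burn blood, and it passed neither without the arrays with hepatocyte signal nor with the actin ratio as a covariate. Its 3 probe sets spanned -0.16 to 0.54. Of 8 dendritic cell genes 2 were positive, Itgax (0.45 ± 0.080) and Ccr9 (0.43 ± 0.14), and 2 negative, Ccr7 and the transcription factor Irf8 (-0.94 ± 0.16, adjusted p = 3.9e-05), with a median of 0.053. Of 9 C-type lectin receptors 2 were positive, Clec7a and Clec4d (1.33 ± 0.47), and 3 negative, Clec2d (-0.83 ± 0.11, adjusted p = 2.7e-07), Clec5a (-0.63 ± 0.20) and the mannose receptor Mrc1 (-0.40 ± 0.14), with a median of 0.038. Clec4e rose in both (2.36 and 2.02). Of 16 Fc and complement receptors and regulators 1 was positive, Fcgr4 (1.34 ± 0.26, adjusted p = 1.8e-04), and 4 negative (median -0.17). The negative members were Cr2, Cd55, which speeds the decay of complement convertases (-1.45 ± 0.23, adjusted p = 8.2e-06), Cfp (properdin), which stabilises them (-1.46 ± 0.32, adjusted p = 6.2e-04), and Cd59a (-0.27 ± 0.071). Cfp had 128 to 371 (median 169) on LPS c and 286 to 680.2 (median 443) on LPS x arrays and was at -0.98 (adjusted p = 0.14) with the actin ratio as a covariate. Of the serpins among the largest negative differences, Serpinb1a, an inhibitor of neutrophil proteases, had 169 to 285 (median 213) on burn c and 74.8 to 106 (median 95.5) on burn x arrays without overlap. It differed by -1.41 ± 0.11 (adjusted p = 2.4e-12), and Serpinb2, an inhibitor of plasminogen activators, by -1.62 ± 0.50 (adjusted p = 0.015). Serpinb2 was at -1.33 (adjusted p = 0.074) without the arrays with hepatocyte signal and at -0.93 (adjusted p = 0.41) with the actin ratio as a covariate. Of 4 mast cell, basophil and eosinophil genes 1 was negative, Cma1 (-0.34 ± 0.11; -0.28, adjusted p = 0.15 without the arrays with hepatocyte signal), and 0 positive (median 0.013), while Hdc rose in both models (2.19 and 1.03). Of 9 enzymes of itaconate, arginine and polyamine metabolism 1 was negative, Odc1 (-0.49 ± 0.13), and 0 positive (median 0.067). The 3 probe sets of Odc1 spanned -0.49 to 0.48, both directions at a like size, and it did not pass without the arrays with hepatocyte signal, at -0.35 (adjusted p = 0.061). Acod1, which makes itaconate, rose in both (2.39 ± 0.54 and 2.29 ± 0.51).

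Of 9 platelet genes 5 were negative and 0 positive (median -0.26). Gp9, a chain of the receptor for von Willebrand factor, had 537 to 975 (median 810.1) on LPS c and 929 to 1514 (median 1140.4) on LPS x arrays. In burn blood it had 451 to 694 (median 514) and 387 to 568 (median 471). All LPS x arrays lay above all burn x arrays, and the difference was -0.76 ± 0.14 (adjusted p = 7.7e-05). Itga2b (-0.54 ± 0.091), Gp5 (-0.34 ± 0.10), Pf4 (-0.31 ± 0.11) and Ppbp (-0.24 ± 0.087) were the other negative members. The count was 3 when any of 5 single arrays was left out (burn c of letter A replicate 4, burn x of letter A replicate 1, burn x of letter E replicate 3, LPS x of letter A replicate 1 and LPS x of letter E replicate 4), and 2 with the actin ratio as a covariate. Of 9 erythroid genes 2 were positive, the transferrin receptor Tfrc (0.87 ± 0.14, adjusted p = 1.1e-05) and the anion exchanger Slc4a1 (0.79 ± 0.22; 0.88, adjusted p = 0.061 with the actin ratio as a covariate), and 1 negative, Alas2, the first enzyme of haem synthesis (-0.49 ± 0.077, adjusted p = 6.7e-06), with a median of 0.093. Alas2 had 8084 to 9999 (median 8898) on LPS c and 10326 to 14414 (median 11433) on LPS x arrays, without overlap.

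**Figure D5:**
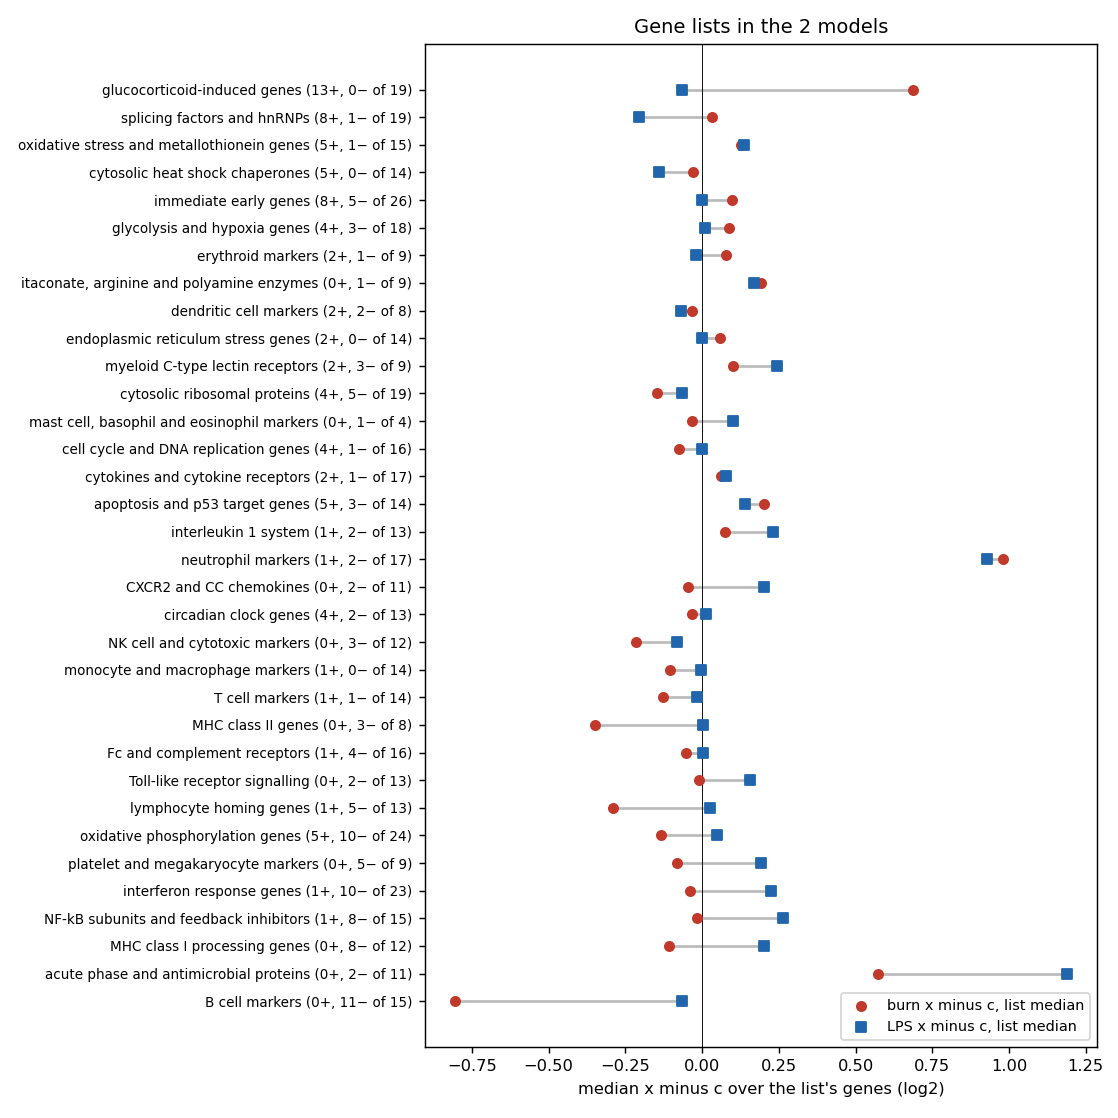
For each gene list, the median x minus c over its tested genes in burn blood (red circles) and LPS blood (blue squares), in log2, ordered by the median burn-minus-LPS difference; the labels give how many genes were called positive and negative. Glucocorticoid-induced genes (0.69 and -0.064) and B cell genes (-0.80 and -0.065) lie farthest apart, while neutrophil genes (0.98 and 0.93) lie together. Each value averages both letters. The median burn-minus-LPS difference of neutrophil genes was 1.07 in letter A alone and -1.08 in letter E alone.

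Of 24 genes of oxidative phosphorylation 5 were positive and 10 negative (median -0.23). The positive calls were not seen with the actin ratio as a covariate (0 positive and 8 negative) or in letter A alone (0 and 10), and letter E alone gave 3 and 2. Uqcrc2, a core subunit of complex III, had 719 to 868 (median 771) on burn c and 601 to 706 (median 636) on burn x arrays. On LPS arrays it had 403 to 582 (median 493) and 492 to 1008 (median 689), and the difference was -0.79 ± 0.10 (adjusted p = 1.1e-07). The ATP synthase subunits Atp5b (-0.66 ± 0.11) and Atp5a1 (-0.59 ± 0.088) were negative and Atp5c1 (0.44 ± 0.14) positive in the fit of all arrays. Other probe sets of Uqcrc2 and Atp5a1 reached 0.22 and 0.17, the opposite direction. Of 19 cytosolic ribosomal proteins 4 were positive and 5 negative (median 0.021), with Rplp0 at -0.88 ± 0.11 (adjusted p = 8.3e-08), Rpl11 at -0.69 ± 0.13 and Rpl27 at -0.64 ± 0.11 on the negative side and Rpl13a at 0.30 ± 0.084 on the positive side. The positive count was 2 without burn x of letter A replicate 4. By letter the ribosomal counts were 0 positive and 5 negative in letter A alone (median -0.32) and 4 and 1 in letter E alone (median 0.24), and with the actin ratio as a covariate 1 and 6 (median -0.14). Of 19 splicing factors 8 were positive and 1 negative (median 0.29), and 10 were lower in LPS blood. Srsf11 (0.59 ± 0.11), Tra2b (0.58 ± 0.11), Hnrnpa1 (0.45 ± 0.10) and Sf3b1 (0.42 ± 0.099) were among the positive members and Prpf8 (-0.22 ± 0.065) was the negative one. Tra2b had 519 to 710.0 (median 622) on LPS c and 292 to 784 (median 460.0) on LPS x arrays, which overlapped. Letter E alone gave 8 positive splicing factors and letter A alone 0.

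Of 18 genes of glycolysis and hypoxia 4 were positive and 3 negative (median 0.094). The enzymes Pkm (-0.90 ± 0.16, adjusted p = 7.0e-05) and Pfkl (-0.74 ± 0.099, adjusted p = 4.3e-07) and the glucose transporter Slc2a3 (-0.70 ± 0.17) were negative, and Slc2a1 (0.94 ± 0.34), Pgk1 (0.59 ± 0.18), Bnip3 (0.40 ± 0.081) and Aldoa (0.39 ± 0.12) positive. Of 15 genes of oxidative stress and metallothioneins 5 were positive and 1 negative (median 0.26). Among the positive were Sod1 (0.46 ± 0.10), Nqo1 (0.38 ± 0.079) and Gpx1 (0.32 ± 0.087), while the regulator Nfe2l2 was negative at -0.92 ± 0.26 and rose in LPS blood (1.06 ± 0.18). Of 14 apoptosis and p53 genes 5 were positive and 3 negative (median -0.025), with Trp53inp1 (0.83 ± 0.17) and Bcl2l11 (0.49 ± 0.17) positive and Casp4, which senses cytosolic LPS (-0.85 ± 0.32), and Casp8 (-0.49 ± 0.097) negative. The positive count was 3 without burn c of letter A replicate 5, burn x of letter A replicate 2 or LPS x of letter A replicate 4. Of 14 genes of endoplasmic reticulum stress 2 were positive, Dnajb9 (0.50 ± 0.13) and Ddit3 (0.39 ± 0.083), and 0 negative (median 0.049). Of 16 cell cycle and replication genes 4 were positive, among them Pcna (0.40 ± 0.12) and Mcm4 (0.30 ± 0.067), and 1 negative, Mcm5 (-0.27 ± 0.074), with a median of 0.00. Pcna fell in LPS blood (-0.50 ± 0.086), and the positive count was 2 without LPS x of letter A replicate 4. With the actin ratio as a covariate the cell cycle counts were 0 positive and 3 negative, and Pcna (0.18, adjusted p = 0.52), Mcm4 (0.27, adjusted p = 0.053) and Mcm5 (-0.29, adjusted p = 0.063) did not pass.

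Further calls and counts moved. With the actin ratio as a covariate Clec5a (-0.16, adjusted p = 0.73), Ddit3 (0.26, adjusted p = 0.14), Gp5 (-0.15, adjusted p = 0.51), Gpx1 (0.21, adjusted p = 0.25), Hnrnpa1 (0.41, adjusted p = 0.053), Parp14 (-0.44, adjusted p = 0.082), Pkm (-0.40, adjusted p = 0.22), Sod1 (0.30, adjusted p = 0.17) and Tbx21 (-0.19, adjusted p = 0.12) also did not pass. The list counts, positive and then negative, became 0 and 3 for T cell markers, 0 and 5 for NK cell and cytotoxic markers, 2 and 1 for monocyte and macrophage markers, 1 and 1 for erythroid markers, 1 and 1 for mast cell, basophil and eosinophil markers, 1 and 2 for dendritic cell markers, 3 and 2 for CXCR2 and CC chemokines, 4 and 1 for interleukin 1 system, 4 and 1 for cytokines and cytokine receptors, 2 and 0 for acute phase and antimicrobial proteins, 1 and 1 for itaconate, arginine and polyamine enzymes, 0 and 5 for MHC class I processing genes, 4 and 4 for circadian clock genes, 6 and 1 for immediate early genes, 1 and 0 for endoplasmic reticulum stress genes, 6 and 1 for glycolysis and hypoxia genes, 3 and 3 for Fc and complement receptors and 8 and 2 for splicing factors and hnRNPs. Without the arrays with hepatocyte signal they became 1 and 0 for T cell markers, 0 and 1 for NK cell and cytotoxic markers, 0 and 0 for monocyte and macrophage markers, 0 and 3 for platelet and megakaryocyte markers, 0 and 0 for mast cell, basophil and eosinophil markers, 0 and 8 for NF-kB subunits and feedback inhibitors, 1 and 2 for cytokines and cytokine receptors, 1 and 3 for myeloid C-type lectin receptors, 0 and 0 for itaconate, arginine and polyamine enzymes, 6 and 3 for immediate early genes, 3 and 2 for oxidative stress and metallothionein genes, 2 and 2 for apoptosis and p53 target genes, 1 and 3 for glycolysis and hypoxia genes, 4 and 3 for cytosolic ribosomal proteins and 9 and 0 for splicing factors and hnRNPs. Tfrc, at 0.87, had another probe set at -0.048.

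Whether the burn-minus-LPS difference itself depends on the letter was tested as a contrast of its own. Of 10247 genes 0 passed (limma), with 1243 at an unadjusted p under 0.05. Of the 2400 called genes, 2370 had the same sign in both letters. The calls rest on the mean of the same 2 letters, so this agreement is largely set by the selection. In fits of a single letter 1195 of the 2400 passed in letter A and 1022 in letter E. Fits of a single letter called 1399 genes in letter A and 1151 in letter E. For x minus c within burn blood they called 1401 and 464 genes, and within LPS blood 1363 and 1678. Cxcl10 (-0.66 among letter A arrays and -2.84 among letter E arrays), Ltf (-0.40 among letter A arrays and -3.0 among letter E arrays) and Cd177 (0.35 among letter A arrays and -3.14 among letter E arrays) were among the named genes with unequal letters. None of them passed the test of letter dependence, nor did Jdp2, Basp1, Ets2 and Cd300lf, whose differences were larger in letter A. Leaving out LPS x of letter A replicate 2 and letter E replicate 5 together, 695 genes were called dependent on the letter, but these arrays were singled out because they resembled the other letter, so that count is a description only. The same step left the counts of glucocorticoid-induced (13 positive), B cell (11 negative), NF-kB (8 negative) and interferon (10 negative) genes as they were. Arhgef3 (-1.38 among letter A arrays and -1.70 among letter E arrays), Sik1 (1.61 among letter A arrays and 1.82 among letter E arrays) and Rgs1 (1.41 among letter A arrays and 1.33 among letter E arrays) were nearly equal.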

How the data were processed

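Expression was measured on 1-colour Affymetrix arrays of mouse blood leukocytes. The authors deposited linear intensities, 1 for each probe set of an array; their computation and scaling are not given in the sources used here. Gene symbols were those of the platform annotation (20380 of 22690 probe sets with 1 symbol, 691 with several, 1555 with none, 64 control probe sets left out), and 20351 matched the RefSeq gene table. Where several probe sets stood for a gene, the brightest was used. A probe set with no symbol or several was kept and counted as a gene of its own. Intensities were taken as log2(value + 16), quantile normalized over the 64 blood arrays, and kept where the mean reached the 30th percentile, which left 10247. Values printed as intensities are as deposited. The limma package (3.58.1, under R 4.3.3) fitted 8 groups with lmFit, contrasts.fit and a trended eBayes; tests were two-sided, and p-values were adjusted by Benjamini and Hochberg's method across the tested genes, with 0.05 as threshold. Errors after ± are SE unless SD is named. Folds are on the log2(value + 16) scale. Actin and GAPDH ratios were compared by 100000 permutations within letters. The number of arrays limits the precision.

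In simulated data each gene had independent normal noise, and 67, 67 and 66 genes were changed by 0.5, 1 and 2 log2. Of these, 86.6%, 97% and 98.5% were recovered, and 6% of all calls were false. Shifts shared by whole arrays were not simulated, so the share of false calls in the real data was not measured. The arrays, the 34 lists (582 genes, 509 on the array, 462 tested) and the tests were chosen with earlier results of these data known, so no count over a list is independent support. Named genes were, among genes with a symbol that passed, the 12 of largest positive and the 12 of largest negative difference. From each list up to 3 passing members of smallest p were added. Over all that passed, 1 of the 12 most negative had no single symbol. Other list members are named to account for their list. Alternatives were other pseudocounts, scalings, filters, fits and thresholds, single letters and runs of title numbers, control-probe ratios as covariates, and leaving out arrays. The GAPDH covariate, the 24 hepatocyte genes (23 on the array), the fits without the arrays they mark, and the fit without LPS x of letter A replicate 2 and letter E replicate 5 were added after seeing the data. Promoters are RefSeq's (GRCm38.p6).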

Additional observations from a re-analysis of the deposited data

Results flagged for a closer look

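The x minus c of 2400 genes differed between the burn and LPS models (limma, contrast of the 2 differences), as the report gives in full. In addition, the highest or lowest array of a group was compared with its neighbour. The gap, divided by the range of the group, exceeded the critical value of Dixon's test at 95% in 78 of 1120 groups of 4 to 6 arrays (6.96%), over named genes, list scores (the mean deviation of a list) and array measures. Chance gives about 1 in 20. Each gap is given in parentheses.

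Among LPS c of letter A arrays, replicate 1 was low for Dnajb9 (0.689). Replicate 4 was high for Per1 (0.792). Replicate 5 was high for Ifngr1 (0.684). Replicate 6 was high for Cdkn1a (0.765), Cxcl10 (0.824), Map3k8 (0.728), Nfkbie (0.777), Relb (0.647) and the score of NF-kB subunits and feedback inhibitors (0.807) and low for H2-Ab1 (0.771), H2-DMa (0.647), Sod1 (0.66), Tnfrsf13b (0.67) and Uqcrc2 (0.719). Among LPS c of letter E arrays, replicate 1 was low for Tbx21 (0.639). Replicate 2 was high for Uqcrc2 (0.654). Replicate 5 was high for Basp1 (0.691), Bnip3 (0.824), Ets2 (0.669), Il15 (0.642), Il1rap (0.691), Jdp2 (0.705), Pkm (0.683), Tgm2 (0.657), the score of Toll-like receptor signalling (0.734), the score of acute phase and antimicrobial proteins (0.668), the score of glucocorticoid-induced genes (0.722) and the score of glycolysis and hypoxia genes (0.769) and low for Itga2b (0.652). Replicate 6 was low for Cxcr5 (0.652) and Tra2b (0.652). Among LPS x of letter A arrays, replicate 2 was high for Ltf (0.925) and low for Fgl2 (0.866). Replicate 4 was high for Prf1 (0.741). Among LPS x of letter E arrays, replicate 2 was high for the score of MHC class I processing genes (0.744). Replicate 3 was low for Ifngr1 (0.808) and the score of endoplasmic reticulum stress genes (0.852). Replicate 4 was high for Jdp2 (0.736). Replicate 5 was high for Dnajb9 (0.758) and low for Cd177 (0.753), Cxcl10 (0.809), H2-D1 (0.789), Prf1 (0.919), S100a8 (0.743), Slpi (0.714), the score of itaconate, arginine and polyamine enzymes (0.837) and the score of neutrophil markers (0.809).

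Among burn c of letter A arrays, replicate 1 was high for the score of itaconate, arginine and polyamine enzymes (0.728). Replicate 2 was high for the score of glycolysis and hypoxia genes (0.807). Replicate 3 was high for the summed hepatocyte genes (0.713) and low for Basp1 (0.758). Replicate 5 was low for Atp5b (0.777) and Gpx1 (0.866). Among burn c of letter E arrays, replicate 4 was high for Cxcl10 (0.789), Relb (0.815) and the score of NF-kB subunits and feedback inhibitors (0.636). Replicate 5 was high for Fgl2 (0.749), Rell1 (0.689) and Trp53inp1 (0.701) and low for H2-K1 (0.724). Replicate 6 was low for Nqo1 (0.731). Among burn x of letter A arrays, replicate 1 was high for Slpi (0.868), the score of Fc and complement receptors (0.832), the score of acute phase and antimicrobial proteins (0.962) and the summed hepatocyte genes (0.987) and low for Thy1 (0.929). Replicate 2 was high for Ddit3 (0.924) and the score of NF-kB subunits and feedback inhibitors (0.951). Replicate 3 was low for Ets2 (0.922). Replicate 4 was high for Itgax (0.956) and Tgfb1 (0.847). Among burn x of letter E arrays, replicate 1 was low for Casp8 (0.713). Replicate 3 was high for the summed hepatocyte genes (0.738) and low for the score of B cell markers (0.882). Replicate 4 was low for Thy1 (0.858). Replicate 5 was high for H2-DMa (0.755) and Nfkbie (0.804) and low for S100a8 (0.781).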

How the results depend on the processing

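The burn-minus-LPS count of 2400 was 1939 to 2715 under other pseudocounts, scalings, filters, variance models, the fit of 12 blood groups, the title-number run as a block and the covariates, apart from 3417 with array weights. It was 1848 without the 6 arrays with hepatocyte signal, 2741 without burn c of letter E replicates 4 and 5, and 2551 without LPS x of letter A replicate 2 and letter E replicate 5. It was 3656 over every probe set, 2003 and 508 within the first and second runs of title numbers, 1399 and 1151 in letters A and E alone, 1180 in letter A alone without the array with hepatocyte signal, 116 at 2-fold or more, and 2233 to 2596 when each array was left out in turn. The burn count of 1835 was 2768 over every probe set, 3235 with array weights, 197 within the second run, 464 in letter E alone, 101 at 2-fold, 864 without the 6 arrays with hepatocyte signal, 1046 in letter A alone without 1 such array, and 1592 to 2180 when each array was left out. The LPS count of 2960 was 662 within the second run, 1363 and 1678 in letters A and E alone, 1390 in letter A alone without the array with hepatocyte signal, 45 at 2-fold, 1938 with the actin ratio as a covariate, and 2689 to 3106 when each array was left out. Dependence on the letter was called for 0 genes, for 1 with median scaling or values as deposited, 3 over every probe set, 265 with array weights, 2 without the arrays with hepatocyte signal, 695 without LPS x of letter A replicate 2 and letter E replicate 5, and 0 to 10 when each array was left out (10 without LPS x of letter E replicate 5). Smaller fits hold fewer arrays; the cause of the other changes was not tested. Of 103 named genes, 40 reached 2-fold. In every other alternative that gave them a value 34 kept their call, and 20 did so with the 2-fold threshold included. With the actin ratio as a covariate 79 kept it, and with the GAPDH ratio 102. Signs turned for Cd177 (0.35 in letter A alone, 0.18 there without the array with hepatocyte signal, 0.55 with the actin ratio) and Slpi (0.062 with the actin ratio). Among list medians, acute phase genes turned to 0.0094 without a filter, 0.27 within the second run, 0.70 in letter A alone, 0.59 there without the array with hepatocyte signal and 0.73 with the actin ratio. Monocyte genes turned to 0.063 within the second run and 0.14 with the actin ratio, T cell genes to 0.068 within the first run, Toll-like receptor signalling to 0.034 with the actin ratio and 0.0063 in letter A alone without the array with hepatocyte signal, where NF-kB genes were at 0.015. Leaving out 1 array moved a count by over 1.5 times in 19 of the 34 lists. No paired analysis was possible because the labels carry no replicate numbers that the groups share.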
